A study of Mus musculus with 30 samples.

Results

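The 10 genes described here run the storage of triglyceride in lipid droplets and its release: the perilipins Plin2, Plin3, Plin4 and Plin5, the acyltransferases Dgat1 and Dgat2, the lipases Pnpla2, Lipe and Mgll, and the lipase inhibitor G0s2. They were taken by symbol (GENCODE mouse annotation) from a table of 55487 Ensembl gene identifiers, and all 10 had enough counts to be tested in both cohorts. The table holds RNA-seq read counts from 30 mouse hearts collected 8 weeks after surgery. In the floxed cohort, mice carrying the floxed Cpt1a allele (FF) and mice with a cardiac-specific knockout of Cpt1a (KO) had transverse aortic constriction (TAC), a clip on the aorta that overloads the left ventricle, or sham surgery, with 4 hearts in each of FF_sham, FF_TAC, KO_sham and KO_TAC. In the AAV9 cohort, C57Bl/6 mice received PBS or AAV9.Cpt1a, a viral vector whose name in the study's design includes a cardiac troponin T promoter, and the same surgeries, with 3 hearts in PBS_sham and PBS_TAC and 4 in AAV_sham and AAV_TAC. Cpt1a encodes a carnitine palmitoyltransferase that admits long-chain fatty acids to mitochondria. The driver of the knockout, the age and the sex are not given in the sources used here, and KO_TAC was assigned from genotype and treatment labels because its sample titles mention TAC and sham together; the study's design text says knockdown where the genotype label says knockout. The labels of the PBS groups name no vector, so the vector and its cargo cannot be told apart. Nothing in the labels says how the hearts of a group relate to each other, so p-values measure the spread between these samples only.

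The heart takes up far more fatty acid than it stores, and a small, fast-turning pool of triglyceride in lipid droplets buffers that supply. Dgat1 and Dgat2, which are unrelated in sequence, add the last acyl chain to diacylglycerol, and perilipins coat the droplet and control access to it. Pnpla2 (ATGL) removes the first fatty acid, Lipe (hormone-sensitive lipase) the second and Mgll (monoacylglycerol lipase) the last, while G0s2 inhibits Pnpla2. Fatty acids freed by Pnpla2 serve as ligands for PPAR alpha, a nuclear receptor that drives genes of fatty acid use, and several perilipins are among the known PPAR targets in muscle.

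Because of that known link, the promoters of the members were searched for the nuclear receptor core motif AGGTCA on both strands, in windows from 250 bases before to 50 bases after each RefSeq start (GRCm38.p6). Windows were found for 8 of the 10 members, 11 in all, and none for Dgat1 or Dgat2. Of the 11, 3 held the core motif, belonging to Plin2 and to overlapping windows of Plin5, against 16.3% of 32851 promoters of that length. The direct repeat of this motif with 1 base between the copies, which overlaps the core motif by construction, was in 0 of the 11 and in 0.0396% of all. A match is a run of letters only. The 150 bases from 250 to 101 bases before the start are shown for these 2 droplet coat genes, 5′ to 3′ on the gene's strand, with the core motif in capitals (in Plin2 it is read on the other strand, as TGACCT). Plin2 lies at chr4:86670160-86670309 and Plin5 at chr17:56117649-56117798, both on the minus strand.
Plin2: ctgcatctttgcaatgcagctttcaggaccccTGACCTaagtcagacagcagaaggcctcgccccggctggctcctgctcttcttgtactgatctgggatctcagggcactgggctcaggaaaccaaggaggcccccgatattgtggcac
Plin5: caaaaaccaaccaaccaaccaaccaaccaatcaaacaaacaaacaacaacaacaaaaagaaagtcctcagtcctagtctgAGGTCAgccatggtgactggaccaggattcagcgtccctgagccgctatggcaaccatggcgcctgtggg

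Library totals ran from 14839758 to 22070373 counts, and each member had at least 279 counts in every library. Levels in CPM are counts scaled to a common library size with TMM factors, except the haemoglobin sum, which used raw totals. Summed haemoglobin transcripts were under 100 CPM in 7 libraries: the 4 of KO_TAC, FF_TAC 2, FF_TAC 3 and the library labelled KO_sham 2. In those 7, a sum of 12 early response genes such as Fos and Egr1 was 2195 to 5793 CPM, against at most 1105 CPM in the other 23. Floxed sham hearts had 37.8 to 52.7 CPM of Cpt1a, and floxed TAC hearts 16.2 to 48.9. The knockout hearts had 11.1 to 19.6 CPM after TAC and 20.3 to 23.7 in 3 sham libraries, but the library labelled KO_sham 2 had 46.3 CPM, which goes against its label. The Cpt1a levels of FF_TAC and KO_TAC overlapped, at the low end of FF_TAC. The lowest FF_TAC library, at 16.2 CPM, was also below the 3 low KO_sham libraries. Its Cpt1a level thus does not tell it from a knockout heart. In AAV_sham Cpt1a was 56.3 to 88.4 CPM against 37.4 to 68.0 in PBS_sham. Cardiomyocyte markers (6 genes summed) were abundant throughout, at 43306 to 61002 CPM, except in PBS_sham 3, where they were 21497 CPM and endothelial markers (5 genes) were 1499 CPM against at most 990.5 elsewhere. KO_TAC 1 had the highest sum of 4 atrial markers, 17229 CPM.

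Measured per kilobase of annotated exon, which allows levels of different genes to be compared, Dgat2 and Pnpla2 were the most abundant members, with medians over the 30 libraries of 131 and 129.7 CPM per kb. Plin3 followed at 56.2, Plin5 at 48.2, G0s2 at 44.1, Mgll at 38.5, Plin4 at 32.3 and Plin2 at 18.4 CPM per kb. Dgat1 and Lipe were lowest, at 7.26 and 6.96 CPM per kb. In FF_sham the neighbours Dgat2 (138 ± 6.23, SD, n = 4) and Pnpla2 (148 ± 12.6) overlapped within their spread, as did Plin3 (52.1 ± 12.6) and Plin5 (60.5 ± 5.60). The heart thus carried Dgat2 transcripts at 15.3 to 25.6 times the level of Dgat1 per length in FF_sham.

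**Figure D1:**
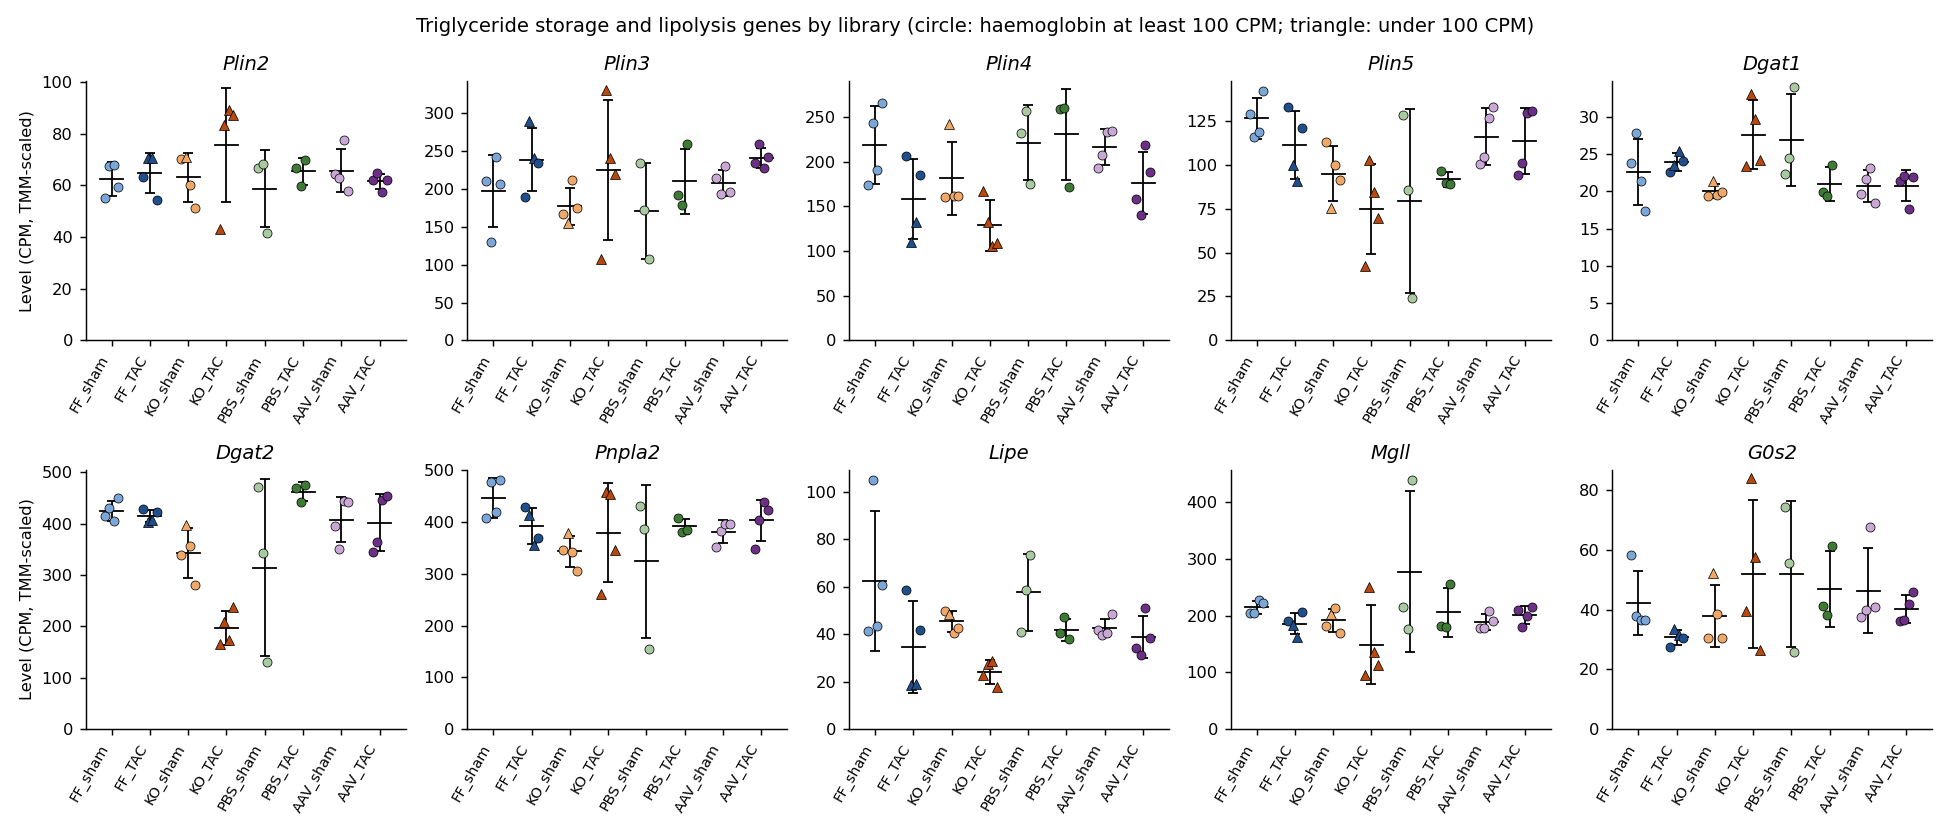
Level of each member in CPM (TMM-scaled, linear axes from 0) in every library, by group. Points are libraries, triangles those with summed haemoglobin transcripts under 100 CPM, lines the group mean and bars 1 SD. Dgat2 in KO_TAC (165 to 237 CPM) lies below every other library of the floxed cohort, and PBS_sham 3 (129.8 CPM) stands apart in its own group.

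The clearest change among the 10 genes was in the transcript of Dgat2, the acyltransferase that mainly uses newly made fatty acids. In the hearts with both Cpt1a loss and TAC, Dgat2 was at about 0.47 of the FF_TAC level and 0.57 of the KO_sham level. Its levels were 414, 429.7, 405 and 449 CPM in FF_sham and 428, 403, 406 and 423 CPM in FF_TAC. In KO_sham they were 338, 396, 357 and 281 CPM, and in KO_TAC 165, 208, 174 and 237 CPM. The KO_TAC libraries were all lower than the lowest library of each other floxed group, the 2 FF groups were nearly identical, and KO_sham lay between them with no overlap with FF_sham. Dgat2 spans chr7:99153658-99182719 and Dgat1 chr15:76502015-76511953, both on the minus strand (GRCm38).

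By the quasi-likelihood test of edgeR, with Benjamini-Hochberg adjustment over 15596 genes, Dgat2 was lower in KO_TAC than in FF_TAC, with a log2 fold change of −1.08 (SE 0.12, adjusted p 0.000317, lower in 4 of 4 libraries). It was the 1 member of 10 called in this comparison, in which 14.3% of all genes were called and 6.8% were called lower. It was also the 1 member without overlap between these groups, against 13.5% of genes. Against KO_sham, Dgat2 fell by 0.81 on the log2 scale (SE 0.12, adjusted p 0.0012 by the same test). There 2 of the 10 members were called, Dgat2 and Dgat1, against 25.8% of all genes (14.3% higher and 11.5% lower), so the share of members is near that of genes at large. With a term for the haemoglobin-low libraries the changes of Dgat2 were −1.13 (adjusted p 0.00191 by edgeR) and −0.87 (adjusted p 0.0215). Every KO_TAC library and no FF_sham library was haemoglobin-low. The term therefore rested on FF_TAC and KO_sham, whose only low libraries were FF_TAC 2, FF_TAC 3 and the one labelled KO_sham 2. The Cpt1a level of that last library went against its label, and the lowest Cpt1a level of FF_TAC lay in the KO_TAC range. Values with this term are therefore read with caution throughout. Among haemoglobin-low libraries alone, KO_TAC against FF_TAC (4 against 2) gave −1.07 for Dgat2, but no call (adjusted p 0.261), and 0 genes at all were called in that fit. In whole hearts, fewer cells of a type and less RNA per cell cannot be told apart.

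In floxed hearts TAC gave a log2 fold change of −0.03 for Dgat2 (95% interval −0.29 to 0.22), and the loss of Cpt1a alone gave −0.31 (−0.57 to −0.05, adjusted p 0.916 by edgeR). The test of whether TAC acted differently in the 2 genotypes gave −0.77 for Dgat2 (SE 0.17), with an adjusted p of 0.0912 by edgeR, 0.00278 by DESeq2 and 0.0044 by limma voom. Under edgeR 0 of 10 members and 0.0449% of genes passed this test of the difference, and 2 members, Dgat2 and G0s2, had an unadjusted p under 0.05, as did 13.1% of genes. DESeq2 called 1 member and 369 genes, and limma voom 3 members and 2930 of the 15596 genes.

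Dgat1, which resides in the endoplasmic reticulum and mainly re-esterifies fatty acids taken up from outside, went the other way. It was 19.4, 21.3, 19.5 and 19.9 CPM in KO_sham and 23.3, 33.1, 29.7 and 24.2 CPM in KO_TAC, with no overlap. FF_TAC, at 22.5, 23.5, 25.5 and 24.0 CPM, and FF_sham, at 23.8, 27.9, 21.3 and 17.4 CPM, overlapped with KO_TAC. Dgat1 rose from KO_sham to KO_TAC by 0.46 (log2, SE 0.14, adjusted p 0.0234 by edgeR). Dgat1 no longer passed when KO_sham 1, 3 or 4 or KO_TAC 2 or 3 was left out (5 of 8 such fits, adjusted p up to 0.0773), without the filter on low counts (adjusted p 0.0531) or with the haemoglobin term (0.39, adjusted p 0.234). Without the library labelled KO_sham 2, the changes were 0.48 for Dgat1 (adjusted p 0.0367) and −0.74 for Dgat2 (adjusted p 0.00355). Against FF_TAC the difference of Dgat1 was 0.21 (95% interval −0.08 to 0.49, adjusted p 0.311).

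The ratio of Dgat2 to Dgat1, each per kilobase, brings out the contrast within each library. It was 7.01, 6.24, 5.80 and 9.72 in KO_TAC, and 14.03 to 25.6 in the 12 other floxed hearts. No KO_TAC heart reached the lowest of these 12. In the AAV9 cohort PBS_sham 3, a heart with neither knockout nor TAC and with low cardiomyocyte markers, was lower still, at 3.79. The other AAV9 hearts were at 13.9 to 25.1. Several cell type markers moved with the low ratio of KO_TAC. In KO_TAC against FF_TAC, 2 of 6 cardiomyocyte markers (Myh6 and Pln) and 3 of 5 endothelial markers were called lower, 3 of 4 fibroblast markers and 4 of 7 macrophage markers higher, and the share of counts from mitochondrial genes was 12.1% to 18.7% in KO_TAC against 20.9% to 26.0% in the other floxed hearts. The summed level of the cardiomyocyte markers was 43306 to 59614 CPM in KO_TAC and 50090 to 54908 CPM in FF_TAC. Per 1000 CPM of cardiomyocyte markers, a ratio chosen after its values were seen, Dgat2 was 3.60, 3.50, 3.99 and 5.47 CPM in KO_TAC, 7.34 to 8.45 in FF_TAC and 5.58 to 7.58 in KO_sham. The part of any of these markers in the result was not tested.

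**Figure D2:**
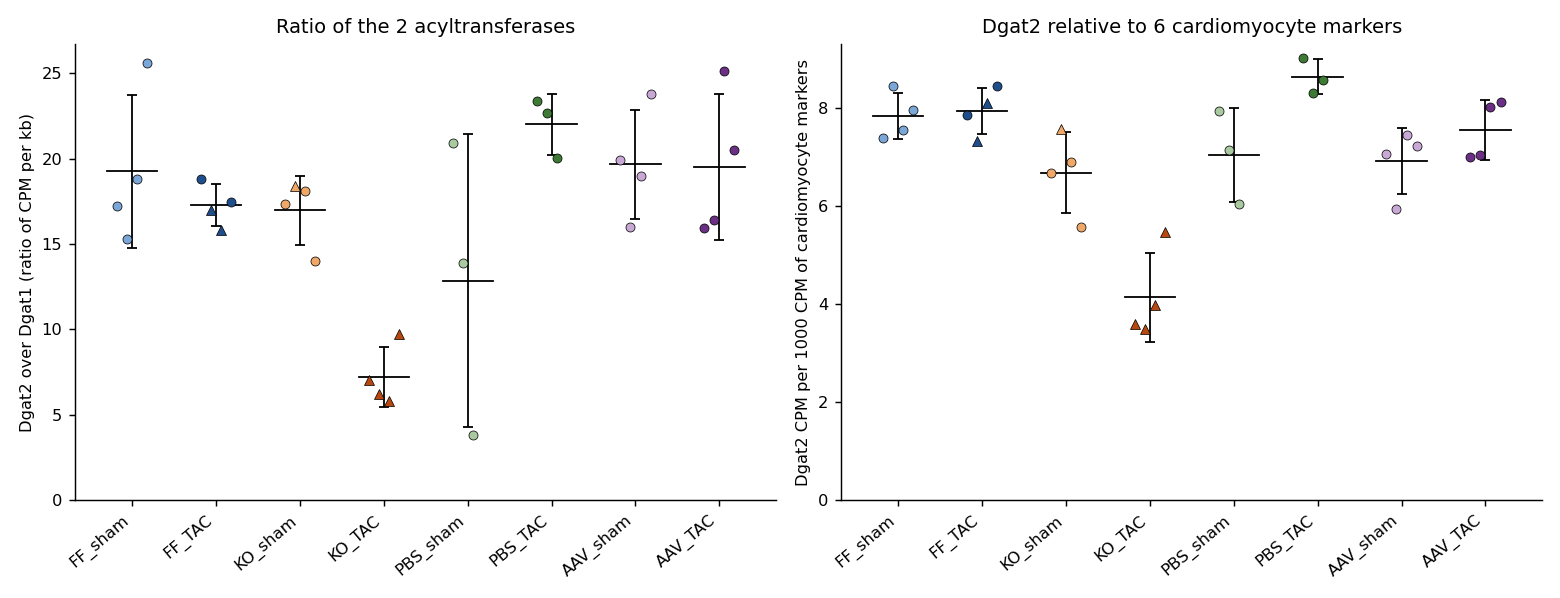
Left, the ratio of Dgat2 to Dgat1 (each in CPM per kb of exon) in every library; right, Dgat2 in CPM per 1000 CPM of 6 summed cardiomyocyte markers. Points, triangles, lines and bars are libraries, haemoglobin-low libraries, group means and 1 SD; KO_TAC lies at 5.80 to 9.72 on the left and 3.50 to 5.47 on the right, below all other floxed hearts in both. On the left, PBS_sham 3 of the AAV9 cohort lies lower still, at 3.79.

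Among the droplet coats, no perilipin passed the test in any comparison by edgeR with all libraries. Plin5, the perilipin of oxidative muscle that tethers droplets to mitochondria, was 129, 116, 119 and 142 CPM in FF_sham and 133, 99.5, 90.7 and 121 CPM in FF_TAC. It was 113, 75.4, 99.9 and 91.1 CPM in KO_sham and 42.2, 103, 84.7 and 69.9 CPM in KO_TAC. Both knockout groups tended to the low side, with all KO_sham libraries below all FF_sham libraries, whereas KO_TAC and FF_TAC overlapped. For Plin5 the difference between KO_TAC and FF_TAC was −0.57 (log2, SE 0.21, adjusted p 0.0857 by edgeR), and −0.34 (adjusted p 0.356) with the haemoglobin term. Without KO_TAC 2, Plin5 passed (−0.76, adjusted p 0.0306). Over the fits leaving out 1 library, 1124 to 3845 genes of any kind were called in that comparison.

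Plin2, the coat protein of most lipid-loaded cells, which is stabilised by lipid, was 43.0, 83.3, 89.1 and 87.1 CPM in KO_TAC. The other 12 floxed hearts lay between 51.1 and 70.8 CPM. The other 3 KO_TAC libraries were thus above every other floxed heart and KO_TAC 1, the library with the highest atrial markers, was below them all. Over all 4 libraries the change of Plin2 was 0.26 against KO_sham (adjusted p 0.314) and 0.23 against FF_TAC (adjusted p 0.438 by edgeR). Without KO_TAC 1 it was 0.45 (adjusted p 0.0135) and 0.41 (adjusted p 0.0318), so 1 library decides whether Plin2 is called. That fit called 6441 and 3845 genes of any kind in these 2 comparisons, where all libraries gave 4031 and 2235. Whether the calls of Plin2 go beyond that of genes at large was not tested. The ratio of Plin5 to Plin2 per kilobase was 1.65, 2.08, 1.60 and 1.35 in KO_TAC, below the 2.16 to 3.74 of FF_TAC and overlapping the 1.79 to 3.002 of KO_sham.

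Plin3, a coat of nascent droplets that is also found in the cytosol, and Plin4, an abundant coat protein of muscle and fat, spread widely within groups. Plin3 ran from 107 to 331 CPM within KO_TAC alone, against 189 to 289.8 in FF_TAC. Plin4 ran from 106 to 168 CPM in KO_TAC and from 109.9 to 207 CPM in FF_TAC. The sham hearts had 160.2 to 242 CPM (KO) and 173 to 266 CPM (FF), so that each TAC group overlapped its sham group. Its differences with TAC were −0.46 in FF hearts and −0.49 in KO hearts (log2, adjusted p 0.455 and 0.106 by edgeR). Without KO_TAC 1, the change against KO_sham passed the test for Plin4 (−0.65, adjusted p 0.0311) and for Plin3 (0.57, adjusted p 0.0362). That fit called 6441 genes of any kind in this comparison, where all libraries gave 4031. Whether these calls go beyond that of genes at large was not tested. Plin4 shares 17 bases of exon with Hdgfl2 on the other strand, which was itself expressed at 52.7 to 98.6 CPM.

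**Figure D3:**
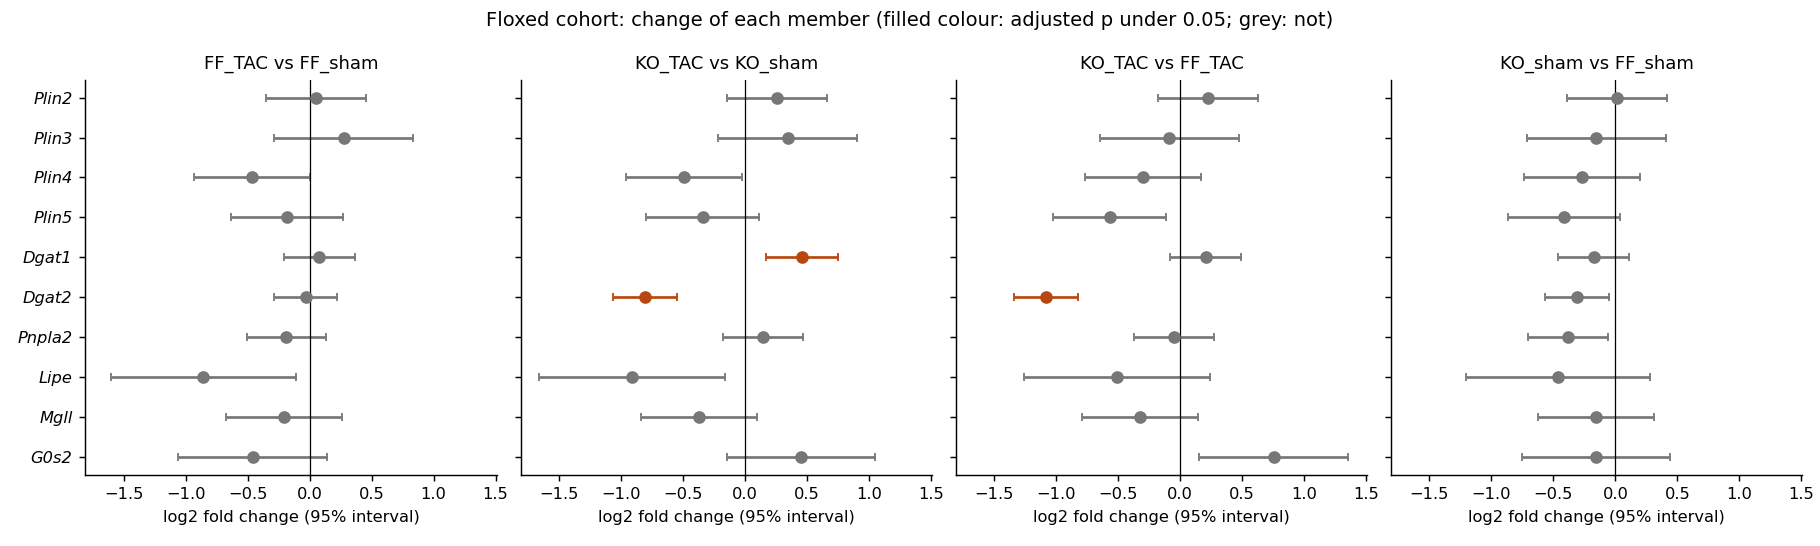
Log2 fold change of the 10 members with its 95% interval in 4 comparisons of the floxed cohort. Coloured points had an adjusted p under 0.05: Dgat1 (0.46) and Dgat2 (−0.81) in KO_TAC against KO_sham, and Dgat2 (−1.08) in KO_TAC against FF_TAC; grey points did not.

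The lipases were not called in any comparison by edgeR with all libraries. Pnpla2, which opens triglyceride breakdown, ran from 260.5 to 458 CPM in KO_TAC and from 305 to 378 in KO_sham. The FF libraries had 356 to 429 CPM after TAC and 408 to 480.4 after sham surgery. KO_sham was below FF_sham without overlap, at −0.38 (log2, SE 0.15), but the adjusted p was 0.916 by edgeR. Together with Plin5 and Dgat2, Pnpla2 made 3 of 10 members whose KO_sham libraries all lay below FF_sham, against 6.77% of genes not overlapping in either direction and 3.55% lower. No member and 0% of genes were called in that comparison, where 2 members and 5.22% of genes had an unadjusted p under 0.05 and DESeq2 and limma voom also called 0 members. Without the library labelled KO_sham 2, edgeR likewise called 0 members.

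Mgll, which also degrades the endocannabinoid 2-arachidonoylglycerol, was 95.8, 250.1, 136 and 113 CPM in KO_TAC and 162 to 207 CPM in FF_TAC. KO_TAC 2 was above, and the other 3 below, every FF_TAC library. Its difference was −0.32 (log2, adjusted p 0.331 by edgeR), and −0.70 (adjusted p 0.0048) without KO_TAC 2. G0s2, the inhibitor of Pnpla2, was 39.5, 83.9, 57.7 and 26.5 CPM in KO_TAC and 27.4, 33.5, 31.7 and 30.3 CPM in FF_TAC, so that 1 KO_TAC library lay below the FF_TAC range and 3 above it. The difference of G0s2 was 0.75 (log2, SE 0.28, adjusted p 0.0856 by edgeR). It was 0.42 without KO_TAC 2 and 0.96 (adjusted p 0.0179) without KO_TAC 4. In the comparison with FF_TAC, the fits leaving out 1 library called 1124 to 3845 genes of any kind.

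Lipe, best known from adipose tissue, is set beside 2 other features of the libraries, haemoglobin and adipocyte markers, with no correlation computed. It was 41.2, 105, 43.5 and 60.7 CPM in FF_sham, 58.5, 18.5, 19.1 and 41.9 in FF_TAC, 49.9, 48.7, 40.6 and 42.6 in KO_sham, and 22.8, 27.6, 28.9 and 17.7 in KO_TAC. All of KO_TAC lay below all of KO_sham, but FF_TAC 2 and 3, the haemoglobin-low libraries of their group, were as low as KO_TAC, whereas the haemoglobin-low library labelled KO_sham 2 was not. For KO_TAC against KO_sham, Lipe differed by −0.91 (log2, SE 0.35, adjusted p 0.0684 by edgeR, 0.04 by DESeq2), and by −0.43 (adjusted p 0.532) with the haemoglobin term. Together with Dgat1 and Dgat2, it made 3 of 10 members without overlap in that comparison, against 23.1% of genes.

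The highest Lipe value, 105 CPM in FF_sham 2, came with 429.7 CPM of summed adipocyte markers (8 genes, including Adipoq and Plin1). That sum was 351.7 CPM in PBS_sham 3 and 695 CPM in PBS_sham 2, where Lipe was 73.4 and 58.7 CPM, 97.2 CPM in PBS_TAC 2 and at most 57.3 CPM in the other 26. In the TAC groups the sum ran from 1.09 to 28.4 CPM (FF) and 1.06 to 35.4 CPM (KO), in the sham groups from 2.14 to 429.7 CPM (FF) and 0.973 to 57.3 CPM (KO). Adipoq was at 0 in 10 of the 30 libraries. With the mean log2 CPM of the 8 adipocyte markers (not their sum) as a covariate, Lipe differed by −1.004 between KO_TAC and KO_sham (adjusted p 0.0236 by edgeR). This covariate was chosen after seeing the data. Lipe shares 918 bases of exon with 4732471J01Rik on the other strand, which was at most 1.05 CPM.

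**Figure D4:**
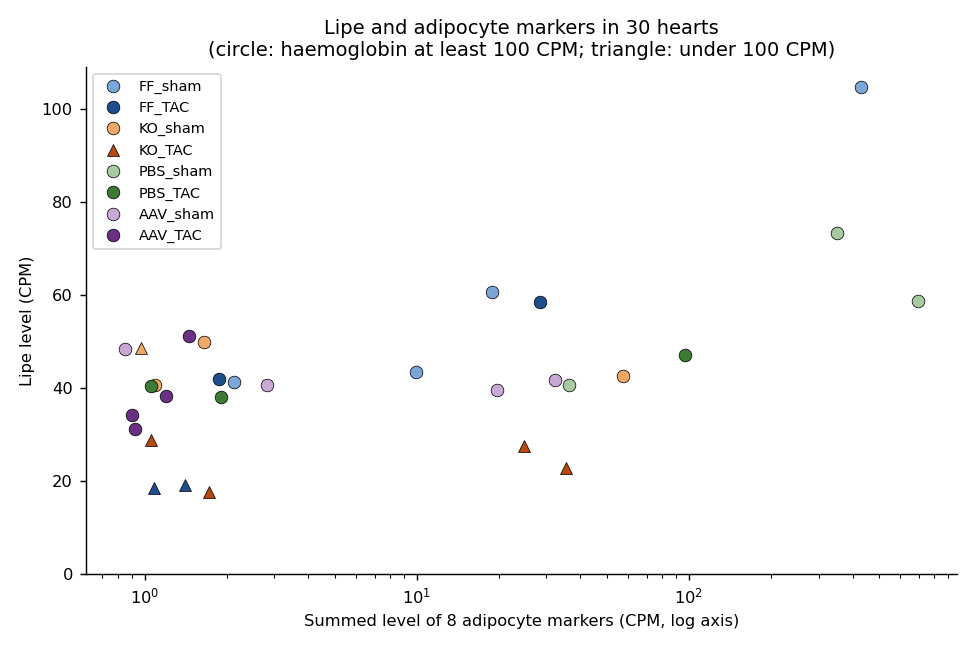
Lipe (CPM, linear axis) against the summed CPM of 8 adipocyte markers (log axis) in 30 libraries, coloured by group, with triangles for haemoglobin-low libraries. FF_sham 2 (105 CPM) is at the upper right with PBS_sham 2 and 3, and the 6 lowest points, all triangles, are the 4 KO_TAC libraries with FF_TAC 2 and 3.

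TAC in FF hearts called 0 of the 10 members by edgeR, DESeq2 or limma voom, and edgeR called 0% of all genes. By edgeR, 1 member (Lipe) and 11.1% of genes had an unadjusted p under 0.05. G0s2 was the 1 member whose 4 FF_TAC libraries (27.4 to 33.5 CPM) all lay below FF_sham (36.4 to 58.1 CPM), against 6.03% of genes without overlap and 3.3% lower. Its change was −0.46 (log2, adjusted p 0.545 by edgeR). Over the members the median log2 fold change was −0.19, beside −0.01 over all genes. In KO_TAC against FF_TAC the medians were −0.19 and 0.04, in KO_TAC against KO_sham −0.10 and 0.02, and in KO_sham against FF_sham −0.22 and 0.00. These comparisons share groups of samples, so they are not independent of each other.

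With the Cpt1a vector, as with TAC in its cohort, no member passed the test by edgeR with all libraries. Neither AAV_sham against PBS_sham (0.0127% of genes called) nor AAV_TAC against PBS_TAC (0.0381%) called a member, and nor did TAC in PBS hearts (0.0318%), TAC in vector hearts (0.00635%) or the difference between the last 2 (0.00635%). The members with an unadjusted p under 0.05 in these 5 comparisons numbered 3, 0, 2, 0 and 0, against 20.7%, 3.19%, 18.5%, 7.05% and 6.95% of genes, and DESeq2 and limma voom called 0 members in each. In AAV_TAC, Dgat2 was 344, 364, 446 and 454 CPM against 469.8, 442 and 475 CPM in PBS_TAC, and the groups overlapped. No member was without overlap in any of the 4 comparisons of groups, against 10.9% (AAV_sham and PBS_sham), 8.47% (AAV_TAC and PBS_TAC), 14.7% (TAC with PBS) and 10.7% (TAC with the vector) of genes. The difference of Dgat2 was −0.20, with a 95% interval of −0.84 to 0.44, which spans changes of the size seen in KO_TAC against KO_sham.

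In the PBS_sham group 1 library stood apart. PBS_sham 3, the heart with the low cardiomyocyte markers, had the lowest Dgat2 (129.8 CPM against 472 and 342), Plin5 (24.1 against 128 and 85.7) and Pnpla2 (156 against 430.4 and 387) of its group, and the highest Mgll (439 against 216 and 176) and Dgat1 (33.96 against 22.4 and 24.4). Per 1000 CPM of cardiomyocyte markers, Dgat2 in this heart was 6.04, beside 7.94 and 7.16 in the other PBS_sham hearts. Its ratio of Dgat2 to Dgat1 per kilobase was 3.79, below every KO_TAC heart, beside 20.9 and 13.9 in those hearts. Without PBS_sham 3, AAV_sham against PBS_sham gave 0.00 for Dgat2 (SE 0.15), where all libraries gave 0.37 (SE 0.30), and TAC in PBS hearts gave 0.19 (SE 0.16) in place of 0.56 (SE 0.32). In neither fit was a member called. With PBS_sham 1 left out instead, Lipe passed in TAC against sham (−0.65, adjusted p 0.0472), and Lipe (−0.62, adjusted p 0.0353) and Dgat1 (−0.48, adjusted p 0.0457) passed in AAV_sham against PBS_sham. The adipocyte sums of the PBS_sham hearts that then remain were 695 and 351.7 CPM, against 36.3 CPM in PBS_sham 1. Over the fits leaving out 1 library, up to 1796 and 2821 genes of any kind were called in these 2 comparisons. Whether the calls of Lipe and Dgat1 go beyond that of genes at large was not tested.

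Genes that work beside the members were read from 4 lists. Of 12 tested PPAR-responsive genes, 7 were called lower and 0 higher in KO_TAC against KO_sham, and likewise 7 and 0 against FF_TAC, where 11.5% and 6.8% of all genes were called lower, with medians of −0.71 and −0.63 beside 0.02 and 0.04 over all genes. The 4 largest falls among the called genes were those of Acot1 and Acot2, acyl-CoA thioesterases, Ppara, the receptor itself, and Acsl1, which activates fatty acids to acyl-CoA. Acsl1 fell from 709 ± 66.9 CPM (SD, n = 4) in KO_sham to 366 ± 89.8 in KO_TAC (log2 −0.96, adjusted p 0.00186 by edgeR). Ppara fell from 13.4 ± 2.21 to 5.35 ± 1.25 CPM (log2 −1.33, adjusted p 0.00203 by edgeR). With the haemoglobin term Acot1 passed in neither comparison (adjusted p 0.114 and 0.085 by edgeR), and Acot2 against FF_TAC only (adjusted p 0.0618 against KO_sham). In those fits 2 genes of the list were called against KO_sham and 5 against FF_TAC, beside 273 and 1127 of all 15596 genes. Among haemoglobin-low libraries alone (KO_TAC against FF_TAC) 0 were called, in a fit that called 0 genes at all. There Acot1, Acot2, Ppara and Acsl1 were at −0.999, −0.81, −0.90 and −0.88 on the log2 scale.

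Fitm1 and Fitm2, which partition triglyceride into droplets at the endoplasmic reticulum, were the 2 called of 12 tested in both comparisons, both lower. Fitm1, the form of skeletal muscle and heart, was 60.1 ± 6.10 CPM in KO_sham, 65.7 ± 7.86 in FF_TAC and 31.8 ± 4.50 in KO_TAC (SD, n = 4 each). Its log2 fold changes were −0.92 and −1.05 (adjusted p 0.000713 and 0.000436 by edgeR), and −0.84 (adjusted p 0.0238) and −0.996 (adjusted p 0.00247) with the haemoglobin term. Fitm2 fell by 0.42 and 0.44 on the log2 scale (adjusted p 0.0289 and 0.0356 by edgeR), and passed in neither comparison with the haemoglobin term (−0.28, adjusted p 0.318, and −0.33, adjusted p 0.167). The 2 of 12 called stand against 25.8% and 14.3% of all genes. The list's medians were −0.09 and 0.05.

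Of 11 tested genes of glycerolipid assembly, 2 were called higher and 1 lower in KO_TAC against KO_sham, and 1 higher and 3 lower against FF_TAC, with medians of 0.01 and −0.08. Over all genes 25.8% and 14.3% were called, so the 3 of 11 against KO_sham is near the share of genes at large. Gpam, the mitochondrial acyltransferase that begins the pathway, was at −0.80 against FF_TAC (adjusted p 0.0445 by edgeR) and Agpat2, which adds the second chain, at −0.64 (adjusted p 0.0197). Of the lipins, which make diacylglycerol, Lpin1, the main cardiac form, fell by 0.34 and 0.41 on the log2 scale, while Lpin2 rose by 0.75 and 0.69 (adjusted p at most 0.0363 in all 4 tests by edgeR). Agpat4 rose from 5.39 ± 0.579 CPM in KO_sham to 22.8 ± 7.85 in KO_TAC (SD, n = 4, adjusted p 0.00307 by edgeR), but was at 1.20 (adjusted p 0.138) in place of 2.08 with the haemoglobin term. Under that term 0 of the 11 were called against KO_sham and 1, Lpin1, against FF_TAC (−0.41, adjusted p 0.0477 by edgeR). Those fits called 273 and 1127 of all 15596 genes.

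Of 12 tested lipase partners and other lipid hydrolases, edgeR called 1 higher and 1 lower in KO_TAC against KO_sham and 0 against FF_TAC. Both shares are below the 25.8% and 14.3% of all genes called. Against FF_TAC limma voom called 4 of the list, beside 6002 of all 15596 genes. The medians were −0.07 and −0.09. Hilpda, a hypoxia-induced inhibitor of Pnpla2, rose from 3.25 ± 0.521 to 14.4 ± 5.21 CPM (SD, n = 4, log2 2.14, adjusted p 0.00463 by edgeR), and was at 1.09 (adjusted p 0.206) with the haemoglobin term. Ddhd2, a lipase acting on neutral lipids, fell by 0.33 on the log2 scale (adjusted p 0.0233 by edgeR) and did not pass with the haemoglobin term (−0.33, adjusted p 0.178). In the other 8 comparisons, which include all 5 of the AAV9 cohort, 0 genes of these 4 lists were called by edgeR.

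**Figure D5:**
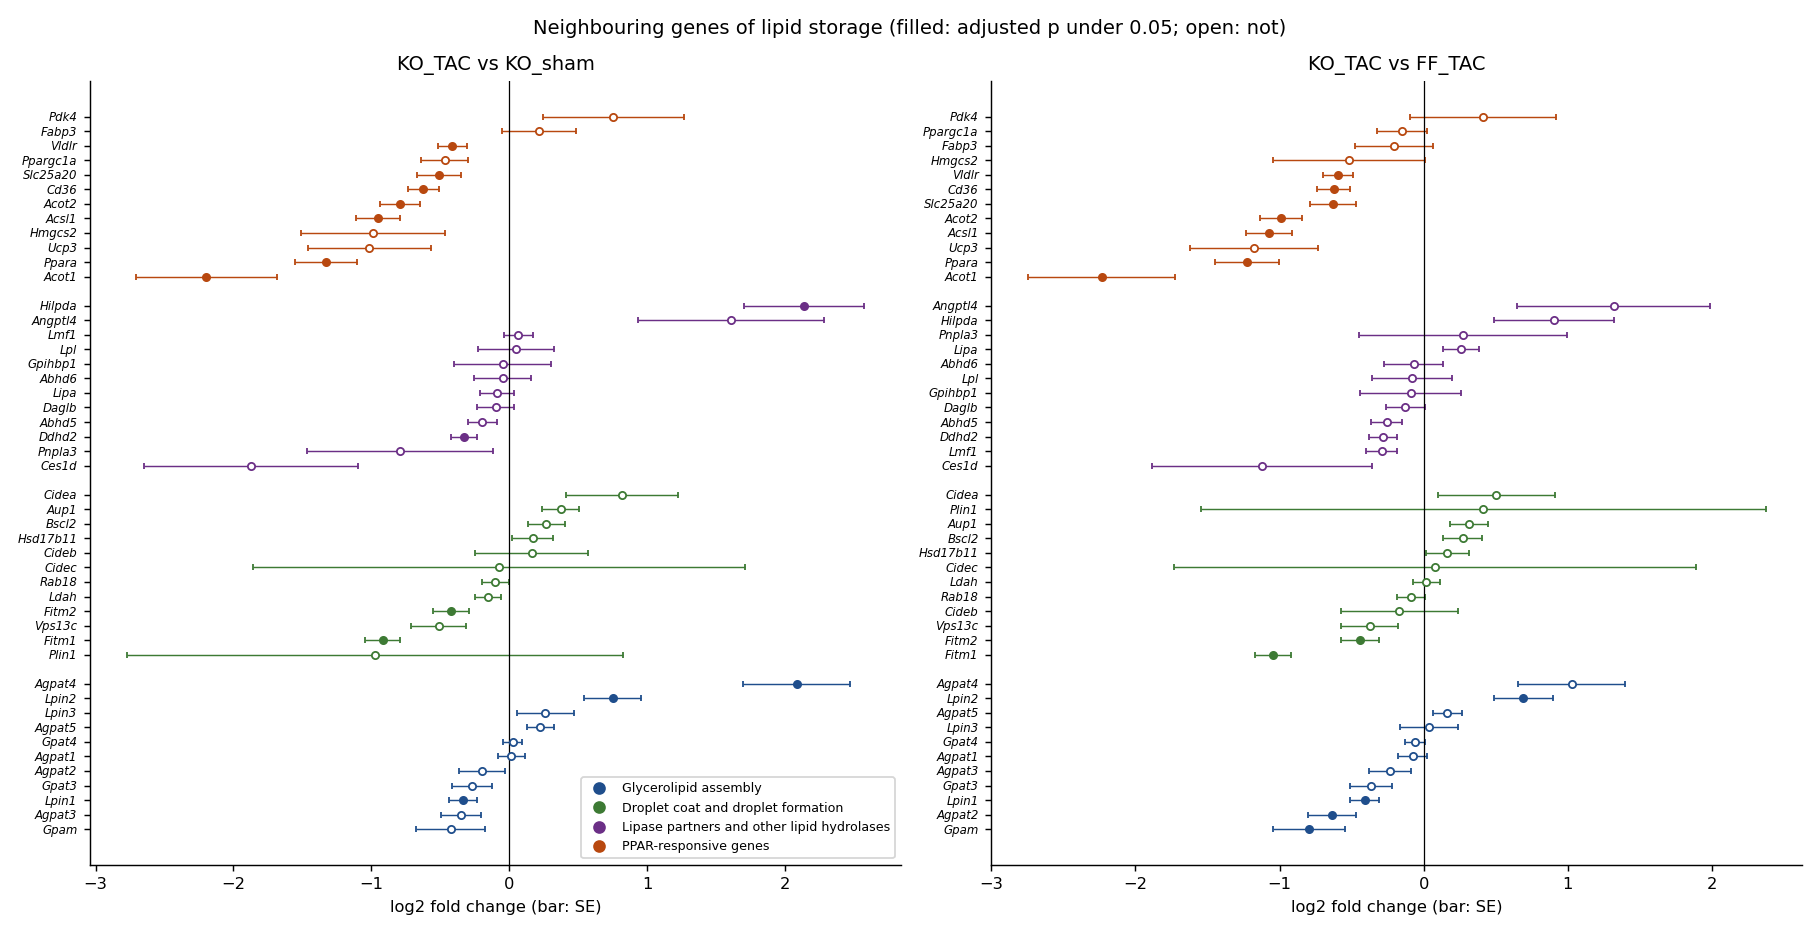
Log2 fold change (bar, SE) of the tested genes of 4 lists in KO_TAC against KO_sham (left) and against FF_TAC (right), filled where the adjusted p was under 0.05. Fitm1 (−0.92 and −1.05), Acsl1 (−0.96 and −1.07) and Ppara (−1.33 and −1.23) were lower on both sides.

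Likeness to Dgat2 and Dgat1 was described over the 23 libraries with at least 100 CPM of haemoglobin, after removing each cohort's mean. The genes most like Dgat2 were Tfdp2 (Pearson r 0.96, Spearman rho 0.86), Slc25a34 (0.96, 0.76) and Sgca (0.95, 0.80), and r was 0.81, 0.75 and 0.71 without the 2 libraries farthest from the median, PBS_sham 3 and KO_sham 4. The genes most like Dgat1 were Sncg (0.85, 0.70), Ifi27 (0.80, 0.42) and Rgcc (0.78, 0.73), with r of 0.68, 0.42 and 0.68 without the 2 farthest, PBS_sham 3 and FF_sham 2. With PBS_sham 3 alone left out, Slc25a34 and Tfdp2 remained among the 3 nearest to Dgat2 (r 0.82 and 0.81), and of the 3 nearest to Dgat1 only Sncg remained (r 0.72). Among the members, Dgat2 was most like Pnpla2 (r 0.94, rho 0.71), falling to 0.74 without PBS_sham 3. The 23 libraries share that outlying heart, their depth and their mix of cells, and include no KO_TAC heart. Over the 7 haemoglobin-low libraries, Dgat2 and Pnpla2 had r 0.16 and rho 0.04. There the genes most like Dgat2 were Ipo13, Magix and Acot2 (r 0.996, 0.991 and 0.989, rho 0.96, 0.86 and 0.89). Those most like Dgat1 were Pin4, R3hcc1 and Wdr70 (r 0.991, 0.986 and 0.983). Of these 7 libraries 4 are KO_TAC hearts and group means were not removed, so r includes the difference between groups. These genes had the highest r of all genes compared, over few libraries, so high values come by selection.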

How the data were processed

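Total RNA from hearts was made into poly(A)-selected, stranded libraries and sequenced as paired reads, per the labels' protocols. The deposited table holds raw read counts per Ensembl gene, with no normalization. The submitters' processing notes name HISAT2 2.1.0, featureCounts, Subread 1.5.1 and GRCm38; their settings, including strand and annotation release, are not given in the sources used here, so reads of genes overlapping on opposite strands may not be separated. Symbols, exon lengths and overlaps came from GENCODE release M21 (GRCm38), which matched 55227 of 55487 identifiers; unmatched ones held 0.0034% of counts.

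Groups came from GEO's labels. Each cohort was fitted apart with edgeR 4.0.16 in R 4.3.3 (TMM, filterByExpr, one mean per group, quasi-likelihood test), with Benjamini-Hochberg adjustment over all 15596 (floxed) or 15745 (AAV9) genes tested, called at an adjusted p under 0.05. The fit was tested on simulated counts. Levels are CPM, or CPM per kb of exon. Alternatives were DESeq2 1.42.0, limma 3.58.1 voom with sample weights, RLE scaling, no filter on low counts, the replicate number as a block, the compared groups alone, all 30 libraries together, a haemoglobin term, haemoglobin-low or -high libraries alone, and each library left out; an adipocyte covariate and likeness without PBS_sham 3 were added after seeing the data. The 10 members and all gene and marker lists were chosen with earlier results of these data known. All members are named in the text, with up to 4 called rises and 4 called falls per list and comparison by size of change, the 3 genes most like Dgat1 and Dgat2 by Pearson r of log2 CPM (prior count 2), and, chosen after their values were seen, ratios between members. Within groups, 42 pairs of libraries differed by more than sampling noise (chi-square per degree of freedom at least 6.29).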

Additional observations from a re-analysis of the deposited data

Results flagged for a closer look

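In groups of 4, 5 values stood far from the other 3 of their group (Dixon's test at the 95% level, over 60 tests of a member in a group; chance flags about 1 in 20 groups). Plin2 was 43.0 CPM in KO_TAC 1, against 83.3 to 89.1 CPM in the other KO_TAC libraries. Plin4 was 242 CPM in the library labelled KO_sham 2, against 160.2 to 162 CPM. G0s2 was 58.1 CPM in FF_sham 1, against 36.4 to 37.8 CPM, and 67.5 CPM in AAV_sham 3, against 37.4 to 40.8 CPM. Dgat1 was 17.6 CPM in AAV_TAC 3, against 21.4 to 22.01 CPM.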

How the results depend on the processing

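The number of members called, out of 10, depended on the method in the KO_TAC comparisons. Against KO_sham, 2 were called by edgeR (25.8% of all genes) and 7 by limma voom with sample weights (8336 of 15596 genes). With the haemoglobin term 1 was called (273 genes), and without the filter on low counts also 1. The fits leaving out one library called 1 to 5, with 5 without KO_TAC 1, where 6441 genes were called. Against FF_TAC, 1 was called by edgeR (14.3% of all genes) and 5 by limma voom (6002 of 15596 genes). Among haemoglobin-low libraries alone 0 were called, as were 0 of all genes. The fits leaving out one library called 1 to 3, with 3 without KO_TAC 1 (3845 genes called) or KO_TAC 2. Whether the members exceed genes at large in any of these fits was not tested. For the test of whether TAC acted differently by genotype the count was 0 by edgeR, 1 by DESeq2, 3 by limma voom and 0 to 1 leaving out one library. In PBS_TAC against PBS_sham it was 0 to 1, and in AAV_sham against PBS_sham 0 to 2, leaving out one library, the highest in both without PBS_sham 1. Dgat2 kept its direction in both KO_TAC comparisons in every alternative run, and its call in all but the haemoglobin-low libraries alone; leaving out one library gave −0.92 to −0.74 against KO_sham and −1.19 to −1.02 against FF_TAC.

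Counts of all genes called moved as well. Against KO_sham they were 4031 by edgeR, 8336 by limma voom and 273 with the haemoglobin term; against FF_TAC they were 2235, 6002 and 1127. With the compared groups alone they were 2327 and 557, and leaving out one library gave 1956 to 6441 and 1124 to 3845, the highest in both without KO_TAC 1. For TAC in floxed hearts the count was 0 by edgeR and 166 by DESeq2. Leaving out one library gave 0 to 1796 genes for TAC in PBS hearts and 1 to 2821 for AAV_sham against PBS_sham, where all libraries gave 5 and 2.

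With the replicate number as a block, 2 and 1 members and 3889 and 2123 genes were called in those comparisons. The numbers share no stated batch, and deviations of same-numbered floxed libraries correlated at −0.37 to 0.45 (24 pairs), so they were not taken to pair the samples.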
